A study of Mus musculus with 4 samples.

Results

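The genes described here are 10 genes of the ATF4 response and of serine and one-carbon metabolism: Atf4, Atf5, Ddit3, Asns, Psat1, Phgdh, Shmt2, Mthfd2, Trib3 and Sesn2. They were taken by gene symbol from a table of ribosome footprints on 25170 genes, and all 10 were found there. The cells were wild-type E14, a mouse embryonic stem cell line from the inner cell mass, grown in serum with leukemia inhibitory factor on gelatin. They were kept for 3 passages either in 1 µM PD, a compound that the labels name only by these letters, or in the solvent DMSO, and each group had 2 libraries. The comparison addresses the part of the kinase Mek in gene regulation after transcription. Ribosome profiling sequences the RNA that ribosomes shield from a nuclease, so a gene's value depends on the amount of its mRNA and on how densely ribosomes sit on it, and the 2 cannot be told apart without matched mRNA data, which were not used here. Separate cultures for the replicates are not mentioned in the labels, and p-values then reflect only the spread of these libraries, which may be technical.

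ATF4 is a transcription factor whose own mRNA carries short upstream reading frames. When amino acids are scarce or unfolded proteins accumulate, kinases phosphorylate the initiation factor eIF2, translation in general slows, and ribosomes reach the ATF4 reading frame more often. ATF4 then raises transcription of genes for amino acid synthesis and transport and for tRNA charging. Among its targets are the enzymes that make serine from a glycolytic intermediate and pass its carbon to folate in mitochondria, a supply that fast-dividing cells use for nucleotides.

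ATF4 binds DNA at a composite element with the letters TGATGNAA, and 2 of the 10 genes had this run on either strand within 250 bases before to 50 bases after a RefSeq start. The genes had 12 such windows in all, and 3.97% of the 32851 windows of the RefSeq table (build GRCm38.p6) held the run. The matches in Asns and Trib3 are shown because these are classical targets of the element, with the run in capitals. In Asns (chr6:7693210-7693289, minus strand) the stretch covers the 80 bases before the start, and the run begins 23 bases before it. In Trib3 (chr2:152344028-152344057, minus strand) the run lies on the opposite strand and begins at base 15 of the transcribed sequence.
Asns: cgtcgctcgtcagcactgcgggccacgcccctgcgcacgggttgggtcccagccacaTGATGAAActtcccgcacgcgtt
Trib3: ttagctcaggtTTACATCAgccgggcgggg
The other 8 genes had no such run in their windows, and none of the 10 had the cyclic AMP response element TGACGTCA (1.79% of all windows). Only these windows were searched, on both strands.

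The deposited unit is FPKM, a count of fragments divided by the length of the transcript and by the size of the library. Levels of different genes can be set beside each other only roughly. The length may include untranslated parts, and reads may be shared with genes of the same locus or with copies. The PD libraries were shallower, with 0.464 and 0.201 times the depth of DMSO replicate 1, against 1.42 times in DMSO replicate 2, so depth moved with treatment and its part in the results was not tested. Reads per gene were read back from the steps in the FPKM values for 8 of the 10 genes, as the smallest whole numbers that account for all 4 libraries, so a whole multiple of them is possible. All 8 embryonic stem cell markers examined were above 0 in every library, with a summed level of 2212 and 3836 FPKM in PD and 2260 and 2228 FPKM in DMSO. Of these markers, picked out after their values were seen, Dppa5a alone made up 1421 and 3203 FPKM in PD and 1414 and 1633 FPKM in DMSO. Nanog had 136 and 116 FPKM in PD against 69.99 and 57.1 FPKM in DMSO, without overlap (limma adjusted p = 0.803). Sox2 went the other way without overlap, with 36.0 and 34.6 FPKM in PD against 45.5 and 44.7 FPKM in DMSO (limma adjusted p = 0.837). Of the 8 markers, 5 had a log2 difference above 0 and 3 below, and 0 passed. In 2 of the 8 the PD libraries lay wholly above the DMSO libraries and in 1 wholly below. Over all genes tested these shares were 17.5% and 18.3%. The 10 feeder and fibroblast markers summed to 84.1 and 88.3 FPKM in PD and to 95.7 and 107 FPKM in DMSO, most of it from fibronectin, Fn1, while Postn and Lum were listed at 0 in every library.

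The order of the genes by mean level was the same in PD and DMSO except that Atf5 and Ddit3 changed places, and no gene of the 10 passed the test between PD and DMSO. Summed over the 10 genes, the level was 843 and 753 FPKM in the PD libraries and 832 and 860 FPKM in the DMSO libraries. Asns stood highest, followed by Psat1, Shmt2, Atf4 and Mthfd2, and the lowest library of each of Asns, Psat1, Shmt2 and Atf4 lay above the highest library of the next gene. Mthfd2, Trib3 and Sesn2 overlapped their neighbours in this order. Phgdh lay below all of these, and Atf5 and Ddit3 were lowest and overlapped. Across genes the range was wide, from 311 FPKM for Asns in PD replicate 2 to an Atf5 value listed at 0 in the same library.

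**Figure D1:**
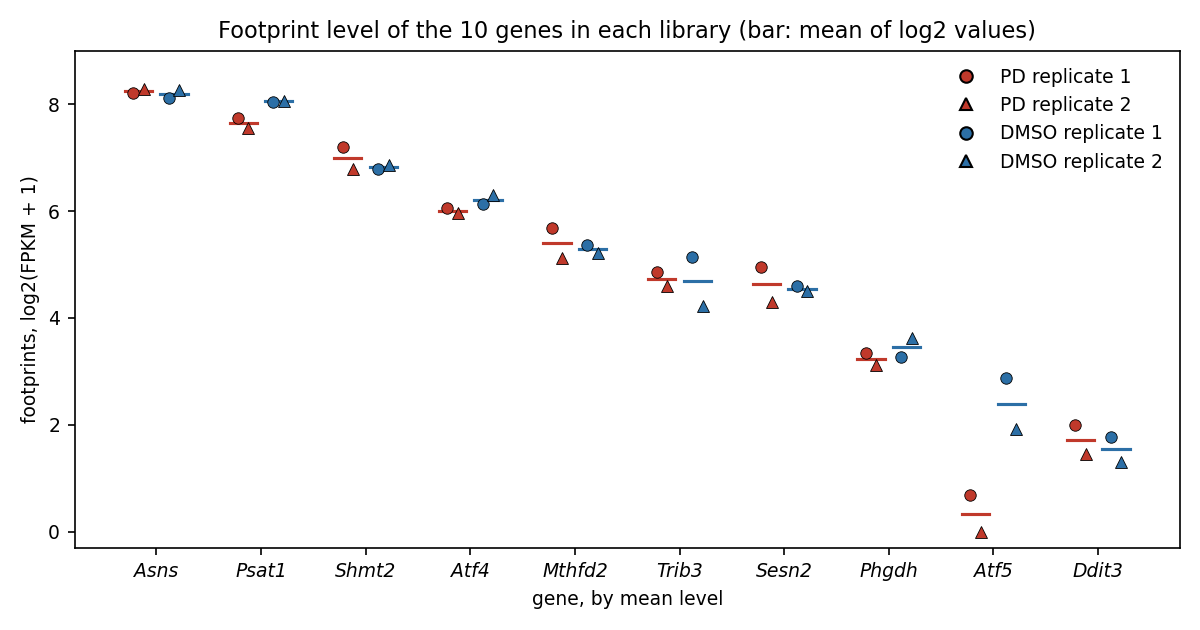
Footprint level of the 10 genes as log2(FPKM + 1), PD at the left and DMSO at the right of each gene. Points are libraries (circles replicate 1, triangles replicate 2) and bars are the mean of the log2 values. For Psat1, Atf4 and Atf5 the PD libraries lie wholly below the DMSO libraries, and the other 7 genes overlap.

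The comparison of groups used log2(FPKM + 1) in limma over the 9741 genes whose mean reached 1 FPKM, with p-values adjusted by Benjamini-Hochberg over all of them and 0.05 as the threshold. All 10 genes met this filter, Atf5 only through its DMSO libraries (mean 4.55 FPKM, against 0.303 FPKM in PD). None passed in either direction, and over all genes tested 0.257% were called, none of them protein-coding. In 3 of the 10 genes every PD library was below every DMSO library, as in 18.3% of all genes tested, and in 0 of the 10 every PD library was above, as in 17.5% of all genes. At an unadjusted p under 0.05 the count was 1 of 10, Atf5, and 5.76% of all genes reached it. The median log2 difference, PD minus DMSO, was 0.05 over the 10 genes and -0.02 over all genes tested, with 6 of the 10 above 0 and 4 below. That median was -0.20 without PD replicate 1 and -0.05 without DMSO replicate 2, so its sign is not settled.

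Atf4 itself, the regulator of the group (chromosome 15, 80255184 to 80257545, mm10), had 65.5 and 61.2 FPKM in the PD libraries, against 69.4 and 77.4 FPKM in the DMSO libraries. The groups did not overlap, but their nearest libraries lay closer together than the DMSO libraries did. The means were 63.3 ± 3.03 FPKM in PD and 73.4 ± 5.67 FPKM in DMSO (SD, n = 2), and the log2 difference was -0.21 (SE 0.24; limma adjusted p = 0.891). As a fold on the FPKM + 1 scale this is 0.865, with a 95% interval from 0.554 to 1.35. Whether the value counts footprints on the upstream reading frames together with those on the ATF4 reading frame is not stated in the labels or the table. Reads could not be recovered for Atf4.

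Atf5, a relative of ATF4 whose mRNA also has upstream reading frames and whose protein acts in the mitochondrial stress response, was thinly covered. It had 0.607 FPKM in PD replicate 1 and was listed at 0 in PD replicate 2, against 6.33 and 2.78 FPKM in the DMSO libraries. Both PD libraries were below both DMSO libraries, and the DMSO libraries themselves differed by more than their lower value. The log2 difference was -2.05 with an SE of 0.52 and a 95% interval from -3.44 to -0.67, with an unadjusted p of 0.0137 and an adjusted p of 0.766 (limma). Atf5 met the filter only through its DMSO libraries, so its p-value and rank are given as values. Of all genes tested, 2.13% had a lower difference. The size depended on the pseudocount, at -4.02 with 0.1 FPKM and -0.83 with 5 FPKM, so no fold is given. The deposited bounds start at 0 in all 4 libraries and reach 3.71 FPKM in PD replicate 1 and 16.6 and 8.97 FPKM in the DMSO libraries. The deposited locus of Atf5 (chromosome 7, 44812256 to 44849079) also spans Il4i1, Il4i1b, Nup62 and Tbc1d17, and no whole reads were recovered for Atf5, so how reads were shared among these genes bears on this value and was not tested.

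Ddit3, which encodes the transcription factor CHOP that acts with ATF4 under lasting stress and favours cell death, was near the lower end of what was measured. It had 3.00 and 1.73 FPKM in the PD libraries, from 4 reads and 1 read, against 2.43 and 1.47 FPKM in the DMSO libraries, from 7 and 6 reads. The groups overlapped, and the log2 difference of 0.18 was smaller than its SE of 0.39 (limma adjusted p = 0.949). With so few reads, the exact 95% Poisson interval of PD replicate 2 runs from 0.0253 to 5.57 reads, and a difference of the size seen between these libraries was not detectable. Such intervals cover counting error only. The deposited bounds of Ddit3 start at 0 in every library. They reach 19.4 and 13.2 FPKM in the PD libraries and 17.4 and 12.4 FPKM in the DMSO libraries. The deposited locus of Ddit3 (chromosome 10, 127290793 to 127311786) also spans Mars1, which encodes the methionyl-tRNA synthetase. How reads were shared between these genes was not tested.

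Asns, asparagine synthetase, had the highest level of the 10 genes and close values in all libraries. Its libraries stood at 296 and 311 FPKM in PD, from 1117 and 510 reads, against 275 and 309 FPKM in DMSO, from 2238 and 3559 reads. The groups overlapped, with PD replicate 2 the highest and DMSO replicate 1 the lowest. The means were 303 ± 10.8 FPKM in PD and 292 ± 23.8 FPKM in DMSO (SD, n = 2), and the log2 difference was 0.06 (SE 0.25; limma adjusted p = 0.978). The 95% interval of the fold on the FPKM + 1 scale ran from 0.652 to 1.66, so this fit does not show that the groups are equal, only that larger differences lie outside its interval. Asns, a target with the element shown above, lies at chromosome 6, 7675165 to 7693209.

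Trib3 and Sesn2 encode 2 further products of the stress response. TRIB3 is a pseudokinase that binds ATF4 and dampens its activity, and Sestrin 2 senses leucine and restrains the growth kinase mTORC1. Trib3 had 28.0 and 23.2 FPKM in the PD libraries, from 111 and 40 reads, against 34.5 and 17.6 FPKM in the DMSO libraries, from 295 and 214 reads. Both PD libraries lay between the DMSO libraries. The Trib3 log2 difference was 0.04 (SE 0.40; limma adjusted p = 0.993), and it was -0.42 without DMSO replicate 2. Sesn2 had 30.2 and 18.8 FPKM in the PD libraries, from 159 and 43 reads, against 23.2 and 21.6 FPKM in the DMSO libraries, from 263 and 347 reads. Here the PD libraries lay on either side of the DMSO libraries, and the log2 difference was 0.09 (SE 0.32; limma adjusted p = 0.970).

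The enzymes of the serine branch differed far more from each other than between groups. Phgdh, the dehydrogenase that commits 3-phosphoglycerate to serine synthesis (chromosome 3, 98313171 to 98339969), had 9.21 and 7.71 FPKM in the PD libraries, from 33 and 12 reads, against 8.67 and 11.3 FPKM in the DMSO libraries, from 67 and 124 reads. The groups overlapped and the Phgdh log2 difference was -0.21 (SE 0.28; limma adjusted p = 0.907). Psat1, the aminotransferase that acts directly after it in the pathway (chromosome 19, 15905123 to 15925059), was at a level more than 20 times that of Phgdh. Phgdh stood at 0.0429 and 0.0414 of the Psat1 level in the PD libraries and at 0.0329 and 0.0424 in the DMSO libraries. The RefSeq table holds 1 pseudogene that bears the name of Phgdh, and reads on a gene with near-identical copies may have been split or dropped, so the Phgdh level is uncertain. Ahcy, an enzyme of the methionine cycle that all cells use and that was picked out after its values were seen, was listed at 0.199 FPKM in PD replicate 1 and at 0 in the other 3 libraries.

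Psat1 had 214 and 186 FPKM in the PD libraries, from 907 and 342 reads, against 263 and 267 FPKM in the DMSO libraries, from 2400 and 3451 reads. Both PD libraries were below both DMSO libraries, which lay close together. The means were 200.3 ± 19.96 FPKM in PD and 265 ± 2.81 FPKM in DMSO (SD, n = 2), and the Psat1 log2 difference was -0.41 (SE 0.25; limma adjusted p = 0.837). The fold on the FPKM + 1 scale was 0.755 with a 95% interval from 0.474 to 1.20, and Psat1 did not pass. Its log2 difference ran from -0.51 to -0.30 over 14 alternative settings. Since the groups did not overlap, leaving out 1 library could not turn its sign, so the constant sign adds no support.

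Shmt2, the mitochondrial hydroxymethyltransferase that moves a carbon from serine to folate, had 146 and 109.1 FPKM in the PD libraries, from 659 and 214 reads, against 109.3 and 116 FPKM in the DMSO libraries, from 1064 and 1596 reads. PD replicate 1 was the highest and the other 3 libraries lay close together. The Shmt2 log2 difference was 0.17 (SE 0.27; limma adjusted p = 0.931). The deposited locus of Shmt2 also spans its neighbour Ndufa4l2. Mthfd2, the mitochondrial dehydrogenase and cyclohydrolase that follows it (chromosome 6, 83305704 to 83317604), had 50.4 and 33.9 FPKM in the PD libraries, from 202 and 59 reads, against 40.2 and 36.2 FPKM in the DMSO libraries, from 348 and 444 reads. The PD libraries lay on either side of the DMSO libraries, and the Mthfd2 log2 difference was 0.11 (SE 0.30; limma adjusted p = 0.961).

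**Figure D2:**
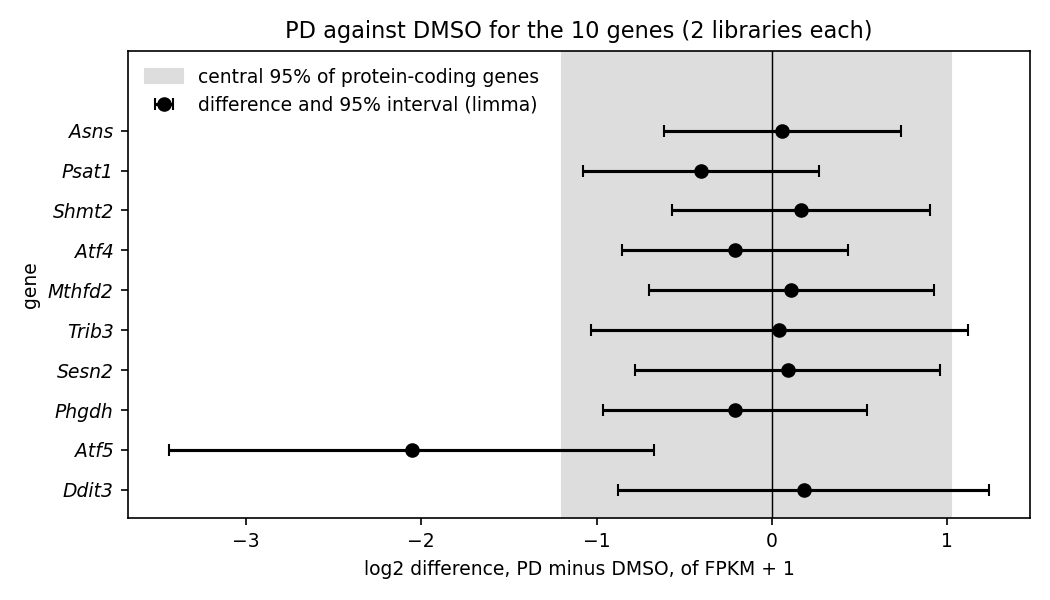
Log2 difference between PD and DMSO for each of the 10 genes on the log2(FPKM + 1) scale, with the 95% interval from limma, not adjusted for the number of genes. The grey band spans the central 95% of the protein-coding genes tested, from -1.20 to 1.02. The difference of Atf5 lies below the band, at -2.05, and those of the other 9 genes lie inside it.

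Ratios between genes of the same library do not depend on how libraries were scaled, and they were taken along the pathway and against Atf4. Psat1 stood at 1.47 and 1.71 times the Shmt2 level in the PD libraries, against 2.41 and 2.31 times in the DMSO libraries, without overlap. Shmt2 stood at 2.90 and 3.22 times the Mthfd2 level in PD and at 2.72 and 3.19 times in DMSO, which overlap. Asns stood at 4.52 and 5.08 times the Atf4 level in PD and at 3.96 and 3.99 times in DMSO, without overlap. Trib3, Sesn2 and Ddit3 relative to Atf4 overlapped between groups, with Sesn2 at 0.461 and 0.307 in PD and at 0.334 and 0.279 in DMSO. Atf5 stood at 0.00927 of the Atf4 level in PD replicate 1 and at 0 in PD replicate 2, against 0.0911 and 0.0359 in DMSO, without overlap. An exact permutation test of a single ratio cannot go below p = 0.333 (two-sided) with 2 libraries a group, so these ratios are given as values. How often other gene pairs separate in this way was not computed.

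The spread between replicates of the same group was set against counting error for the 8 genes with reads, as the ratio of replicate 1 to replicate 2 with an exact 95% interval (Clopper-Pearson, scaled by depth). The ratio left 1 outside its interval for 4 genes in PD and for 2 genes in DMSO. In PD these were Psat1 at 1.15, Shmt2 at 1.34 (interval 1.14 to 1.57), Mthfd2 at 1.49 and Sesn2 at 1.61, all higher in replicate 1. In DMSO they were Asns at 0.891 and Trib3 at 1.95 (interval 1.63 to 2.34). Trib3 thus differed more between the DMSO libraries than any of these 8 genes did between the group means. The share of all genes with reads whose ratio left 1 outside its interval was not computed. The counts are therefore not read as particular to these 8 genes. The deposited bounds were wider than this counting error. For Asns in DMSO replicate 1 they ran from 149 to 401 FPKM around 275 FPKM, whereas 2238 reads alone allow 95.9% to 104% of that value. For each of the 10 genes the 4 deposited intervals had values in common.

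**Figure D3:**
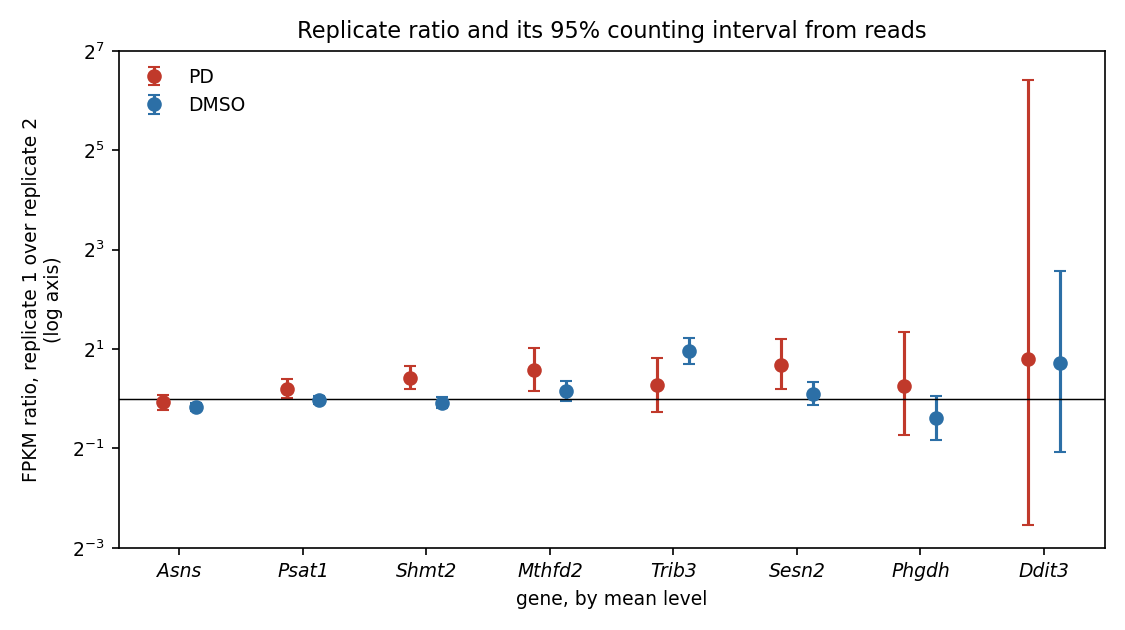
Ratio of FPKM in replicate 1 to replicate 2 within PD and within DMSO, on a log axis, with 95% counting intervals from the recovered reads (8 genes). The interval is narrow for Asns and Psat1 and very wide for Ddit3, and Trib3 in DMSO stands at 1.95.

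Other genes of the same pathways showed no called change either. Of 29 further ATF4 target and amino acid response genes, 27 were tested and 0 passed (limma). Of these 27, 1 had an unadjusted p under 0.05 (limma), beside 5.76% of all genes tested. In 6 the PD libraries lay wholly above the DMSO libraries and in 2 wholly below, beside the same 17.5% and 18.3% of all genes tested. The median log2 difference was 0.01, with a range from -0.19 to 0.11 over all settings. It was -0.02 when libraries were rescaled to 1 protein-coding sum, which put the median of all genes tested at -0.05. Cebpg, which encodes a partner that binds DNA together with ATF4, had the largest difference of this list, 1.53, with 5.80 and 9.06 FPKM in PD against 1.25 and 2.64 FPKM in DMSO (limma adjusted p = 0.80). The arginine and lysine transporter Slc7a1 had 40.7 and 28.0 FPKM in PD against 22.6 and 16.1 FPKM in DMSO, without overlap. Cbs, which joins serine to homocysteine, had 6.19 and 0.950 FPKM in PD against 4.40 and 8.10 FPKM in DMSO, and Cebpb, another DNA-binding partner, had 2.12 and 0 FPKM in PD against 1.97 FPKM in each DMSO library. The ATF4 relative Atf3 was listed at 0 in 3 libraries and was not tested.

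Around the serine enzymes, 20 of 24 further genes of serine, glycine and folate metabolism were tested and 0 passed (limma). Of these 20, 1, Gldc, had an unadjusted p under 0.05 (limma), beside 5.76% of all genes tested. In 7 of the 20 the PD libraries lay wholly below the DMSO libraries and in 3 wholly above, beside 18.3% below and 17.5% above over all genes tested. The median log2 difference was -0.14, with 14 of the 20 below 0, beside 5069 of the 9741 genes tested. That median ran from -0.26 to -0.05 over 14 alternative settings, which reuse the same libraries. The median of all genes tested ran from -0.05 to 0.05 over them. Gldc, the decarboxylase of the glycine cleavage system, had 48.1 and 41.0 FPKM in PD against 67.6 and 79.8 FPKM in DMSO (log2 difference -0.71, limma adjusted p = 0.837). Tyms, which makes thymidylate with a folate carbon, had 9.97 and 5.67 FPKM in PD against 13.5 and 11.9 FPKM in DMSO. Slc25a32, the mitochondrial folate carrier, had 1.53 and 0.782 FPKM in PD against 2.52 and 3.22 FPKM in DMSO.

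The eIF2 kinases and factors that act before ATF4 had a median of -0.01 over 20 tested genes. Of these, 0 passed (limma) and 0 had an unadjusted p under 0.05. In 3 of the 20 the PD libraries lay wholly above the DMSO libraries and in 1 wholly below. Over all genes tested these shares were 17.5% and 18.3%. Eif2ak2, the kinase PKR that responds to double-stranded RNA, had 5.99 and 4.16 FPKM in PD against 3.09 and 2.37 FPKM in DMSO, and the heme-regulated kinase Eif2ak1 had 9.44 and 4.53 FPKM in PD against 13.2 and 8.17 FPKM in DMSO. Eif2b5, the catalytic subunit of the exchange factor, had 50.1 and 67.0 FPKM in PD against 42.0 and 40.8 FPKM in DMSO, and Eif2s1, the phosphorylated subunit itself, had 27.6 and 12.7 FPKM in PD against 26.8 and 25.4 FPKM in DMSO. The 20 cytosolic aminoacyl-tRNA synthetase genes, many of them ATF4 targets, had a median of -0.0028 and ran from -0.49 to 0.21, with 0 passing (limma) and 0 at an unadjusted p under 0.05. Sars, the seryl-tRNA synthetase, had 71.0 and 66.0 FPKM in PD against 92.2 and 102 FPKM in DMSO, and the next lowest differences were those of Vars (-0.35), Dars (-0.27) and Yars (-0.22). With quantile normalization these medians were 0.05 and 0.04, and the median of all genes tested was 0.04.

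The ATF6 and XBP1 branch of the unfolded protein response, which shares stress signals with ATF4, had a median of 0.04 over 18 tested genes (from -0.11 to 0.11 over all settings), again with 0 passing (limma) and 0 at an unadjusted p under 0.05. Hspa5, the chaperone BiP, had 807 and 1010 FPKM in PD against 674 and 583 FPKM in DMSO, the largest difference of this list at 0.53 (limma adjusted p = 0.837). Creld2 had 78.1 and 45.2 FPKM in PD against 38.6 and 45.9 FPKM in DMSO, Herpud1 had a log2 difference of 0.43, and Dnajc3, which inhibits eIF2 kinases, had one of -0.39.

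**Figure D4:**
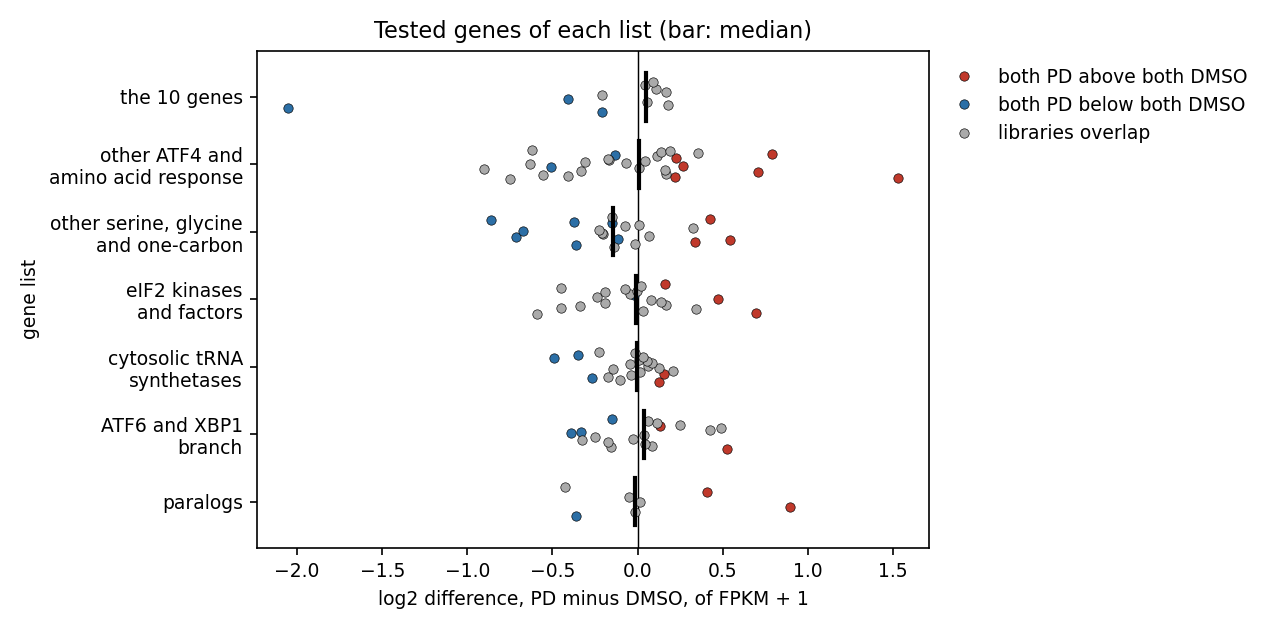
Log2 difference between PD and DMSO, on the log2(FPKM + 1) scale, of each tested gene of the lists, with a bar at the list's median. In red points the PD libraries lie wholly above the DMSO libraries, in blue points wholly below, and grey points overlap. Among the 7 lists drawn, which leave out the cell type markers, the medians run from -0.14 for the other serine, glycine and one-carbon genes to 0.05 for the 10 genes.

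Relatives of the 10 genes varied widely in level. Shmt1, the cytosolic counterpart of Shmt2, had 87.5 and 78.3 FPKM in PD against 95.3 and 119 FPKM in DMSO, and Mthfd1, the cytosolic folate enzyme, had 71.5 and 72.5 FPKM in PD against 68.8 and 76.9 FPKM in DMSO. Mthfd2l, the close relative of Mthfd2, was at 0.684 and 0 FPKM in PD and at 2.01 and 1.12 FPKM in DMSO and was not tested. Sesn1 had 5.41 and 5.40 FPKM in PD against 3.85 and 3.79 FPKM in DMSO, and Sesn3 ran from 2.14 to 7.13 FPKM. Sesn2 thus had the highest FPKM of the sestrin genes in every library. Trib2 was below 1 FPKM in every library, and Trib1 was at 2.44 and 0 FPKM in PD against 0.226 and 0.718 FPKM in DMSO. Atf1, a relative of CREB, had 28.0 and 28.2 FPKM in PD against 17.3 and 12.4 FPKM in DMSO (log2 difference 0.90, limma adjusted p = 0.806), while Atf2 and Atf7 overlapped. Of the 14 relatives, 7 were tested and 0 passed (limma). Of these 7, 1 had an unadjusted p under 0.05 (limma), beside 5.76% of all genes tested. In 2 the PD libraries lay wholly above the DMSO libraries and in 1 wholly below, beside 17.5% and 18.3% of all genes tested.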

How the data were processed

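The authors deposited FPKM values with a lower and an upper FPKM bound and a status per library, in Cufflinks' layout, per the file headers. Cufflinks, STAR, Bowtie2, Trimmomatic, FastQC and mm10 are named in the submitters' processing notes. Their versions, and the handling of reads with several matches, are not given in the sources used here. The 1 gene without an OK status was left out, and 1 was added to each deposited locus start.

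From these values, reads were recovered with a tolerance of 0.02 reads and a limit of 0.01 on the expected number of chance matches. This gave whole reads for 75.7% of 10161 genes above 0 in all libraries. On 1500 drawn genes a shorter search gave 73.7%, against 1.6% to 3.07% over 20 random sets of wrong library steps. The full search tried up to 3000 reads in the library with the fewest, and its share at wrong steps was not measured. Among well-covered genes 51.6% to 53.2% had an odd number of reads in a library, a share that a depth wrong by a factor of 2 would have moved. The PD and DMSO libraries were compared on log2(FPKM + 1) in limma 3.58.1 under R 4.3.3, with a variance trend and group as the only term, and intervals were computed with scipy 1.17.1. The fit and the read recovery were tested on simulated data. Alternatives covered the pseudocount, filter, scaling, trend, replicate block, voom and each library left out.

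The 10 genes and the lists were chosen with earlier results of these data known. All 10 were named, and of each other list the tested genes with the 4 largest differences, of which 1 is not reported here.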

Additional observations from a re-analysis of the deposited data

How the results depend on the processing

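0 of the 10 genes passed in either direction in each of 14 alternative settings. Changing the filter, trend or block, or fitting only protein-coding genes, could not alter the log2 differences of these genes. With those settings included, 128 of 136 recomputed log2 differences kept their sign and 8 turned, each when 1 library was left out. Without PD replicate 1 these were Ddit3, Shmt2, Mthfd2, Trib3 and Sesn2, without DMSO replicate 2 Ddit3 and Trib3, and without DMSO replicate 1 Asns. With each library left out, Ddit3 ran from -0.096 to 0.46, Asns from -0.025 to 0.14, Shmt2 from -0.043 to 0.37, Mthfd2 from -0.17 to 0.39, Trib3 from -0.42 to 0.51 and Sesn2 from -0.24 to 0.42 on the log2 scale. Where a library was left out, the lone library of its group was assumed to vary like the other group. The median of the 10 genes ran from -0.20 to 0.16 over all settings. Over all genes tested, 3 passed higher and 22 lower in PD. With each library left out, 0 to 27 passed higher and 0 to 20 lower (0 and 0 without DMSO replicate 1 or without DMSO replicate 2, where 344 and 416 had an unadjusted p under 0.05, 13 and 10 without PD replicate 1, 27 and 20 without PD replicate 2). With voom on recovered reads 0 passed in either direction (limma), and 458 of 7189 genes had an unadjusted p under 0.05. In a fit of only protein-coding genes 0 passed (limma), and 609 of 8895 had an unadjusted p under 0.05. The other settings gave 2 to 3 higher and 17 to 25 lower. The replicate block gave 2 higher and 17 lower and called none of the 10 genes. Samples share only a replicate number: same-numbered deviations correlated at 0.10 over all genes tested and at 0.20 over the protein-coding ones. Atf4 and Atf5 had no recovered reads and no voom value, and Atf5 and Ddit3 were lost with a filter of 5 FPKM. Depth limits Ddit3, with 1 to 7 reads, and Phgdh in PD.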
